A study of Mus musculus with 12 samples.

Results

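Long noncoding RNAs (lncRNAs) that already carry a RefSeq name were followed in male and female mouse liver. The deposited lncRNA table holds 15558 rows, of which 983 have a RefSeq name, and the 930 that lie on an autosome and are classed there as intergenic (609) or antisense to another gene (321) were kept. Left out were 25 named rows inside genes and 28 on chromosome X or Y. The members span 19 chromosomes, 36 of them carry more than 1 name, 43 are named by microRNA symbols alone, and 3 names occur in 2 rows. For comparison, 14032 autosomal intergenic or antisense rows have no RefSeq name (12425 intergenic, 1607 antisense).

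The livers came from untreated, intact CD-1 mice, an outbred stock, aged 7 to 11 weeks. The 4 groups were total RNA of females, total RNA of males, and RNA of purified nuclei of each sex, each of 3 pools made from 12 to 17 mice, and nuclei were purified by ultracentrifugation through sucrose. All 12 libraries were prepared after a ribosomal RNA depletion that was only partial. The measured value is the authors' mean RPKM of a group (reads scaled to transcript length and library size), so levels of different lncRNAs can be set side by side. Sex differences are the log2 values of males over females in the authors' deposited table, negative where females were higher, and a lncRNA was called when its adjusted p there was under 0.05. A mean is printed without an SD because values per pool were not used here. The spread between pools is therefore not shown, and the adjusted p does not stand in for it.

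Many lncRNAs are spliced and capped like messenger RNAs but act as RNA, some as scaffolds of nuclear bodies, some as catalytic RNAs and some as the precursors from which microRNAs or small nucleolar RNAs are cut. In rodent liver, the sexes differ in the rhythm of growth hormone release, which is pulsatile in males and nearly continuous in females, and the transcription factor STAT5 carries this signal to many sex-dependent genes. BCL6 and CUX2 are repressors with known parts in the same system. RNA from purified nuclei is rich in nascent and nuclear-retained transcripts, while total RNA is dominated by mature cytoplasmic RNA.

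Sequences are shown for some of the loci called between the sexes, and not for Gm12718 or 9030619P08Rik, described below. RefSeq promoters of 300 bases (250 before and 50 after the transcript start, build GRCm38.p6) matched 670 members by symbol, including 6 of the 10 called in both RNA fractions. Of the 5 chosen by the size of the difference, Gm17830 and Meg3 start within 117 bp of the 5′ end of the deposited row and are printed because their start lies at the 5′ end of the measured row. The other 3 (4632428C04Rik, B930025P03Rik and 1700028E10Rik) start 22694, 12736 and 4557 bp inside the deposited row and are described only. The printed promoter of Gm17830 belongs to its RefSeq transcript, which itself was not called (log2 0.79 in total and 0.58 in nuclear RNA). Capitals mark matches on either strand to TTCNNNGAA (the STAT5 core), ATCGAT or ATCAAT (CUX2-type sites), TATAAA or CCAAT; in Meg3 a forward and a reverse TATAAA overlap.
Gm17830, chr17:49312911-49313210, minus strand, higher in males: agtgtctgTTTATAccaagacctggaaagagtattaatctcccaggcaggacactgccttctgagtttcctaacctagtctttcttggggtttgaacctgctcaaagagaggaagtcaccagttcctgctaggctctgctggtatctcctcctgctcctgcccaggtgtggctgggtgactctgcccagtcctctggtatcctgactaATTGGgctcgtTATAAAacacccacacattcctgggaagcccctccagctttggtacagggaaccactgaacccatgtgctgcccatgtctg
Meg3, chr12:109540746-109541045, plus strand, higher in females: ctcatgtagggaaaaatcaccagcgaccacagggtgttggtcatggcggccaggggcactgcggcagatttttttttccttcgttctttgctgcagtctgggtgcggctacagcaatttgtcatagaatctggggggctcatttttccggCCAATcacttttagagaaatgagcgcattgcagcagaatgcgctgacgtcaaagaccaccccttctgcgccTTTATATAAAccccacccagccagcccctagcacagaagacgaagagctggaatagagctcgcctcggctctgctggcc
Both hold TATAAA close to the start, with the forward match beginning 31 bases upstream in Gm17830 and 25 bases upstream in Meg3. A match to TATAAA occurs somewhere in 13.6% of all 32851 promoters of this length in the table, and one to CCAAT, held by 4 of the 5 chosen promoters, in 37.4%. TTCNNNGAA was found in 1 of the 5, B930025P03Rik, 191 bases upstream of its start, against 8.30% of all promoters. ATCGAT (0.925% of all) and ATCAAT (7.54%) were found in none of the 5. No motif was found in the promoter of 1700028E10Rik, which is 69.7% G or C and holds 38 CpG. The pyrimidine-rich runs CTTTC and CTTTT, searched on the sense strand after the start because such runs open the transcripts of many small nucleolar RNA hosts, were in none of the 5, against 5.95% and 5.08% of all promoters.

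Several called rows are microRNA loci or hold a microRNA, and the mature products are shown because the row is the precursor's locus and was measured, not the mature microRNA. Capitals mark the seed, bases 2 to 8, which pairs with targets.
miR-802-5p (row Mir802, higher in females): uCAGUAACaaagauucauccuu
miR-802-3p (row Mir802): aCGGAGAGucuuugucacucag
miR-3968 (row Mir3968, higher in females): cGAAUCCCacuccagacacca
miR-1247-5p (row Dio3os, higher in females): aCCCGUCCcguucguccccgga
miR-125b-5p (row Mir125b-2, higher in males): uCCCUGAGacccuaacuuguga
No seed is shared among these. The seed of miR-125b-5p also occurs at 5 other mouse loci of the RefSeq table (Mir125a, Mir125b-1, Mir351, Mir6367 and Mir6394). None of these is in the name of a member's row, but Mir125b-1 lies within a row named 3110039I08Rik. The other seeds printed occur at no other locus of that RefSeq table.

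The named lncRNAs ranged from the very abundant Rn45s row to transcripts at 0. The highest was Rn45s, the row of the 45S precursor of ribosomal RNA. Its authors' means were 51461 RPKM in female total, 60908 in male total, 19932 in female nuclear and 26285 in male nuclear RNA. Reads of the precursor and of mature ribosomal RNA were not told apart in that row. Next came Rmrp, the RNA of the ribonuclease MRP that cuts precursor ribosomal RNA, with 549, 360, 2892 and 3003 RPKM in the same order. Rpph1, the catalytic RNA of ribonuclease P, which trims transfer RNA precursors, had 369, 225, 99.2 and 110 RPKM. These catalytic and ribosomal RNAs did not share a pattern between fractions, because Rmrp was higher in nuclear RNA and Rn45s and Rpph1 in total RNA.

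Neat1, the scaffold of paraspeckles, had the authors' means of 30.1 RPKM in female total, 7.59 in male total, 105 in female nuclear and 84.5 in male nuclear RNA. The Mir122 row, which covers the precursor of the most abundant liver microRNA, had 24.9, 14.6, 104 and 80.2 RPKM in that order. 4930470H14Rik followed with 10.7, 7.17, 44.2 and 34.9 RPKM. Only 5 members reached 100 RPKM in a group, and they are the 5 loci just named ahead of 4930470H14Rik. Scar2, an older name of the small Cajal body RNA locus Scarna2, had 7.16, 4.17, 28.4 and 29.6 RPKM. The antisense 0610005C13Rik was near even across groups with 19.3, 12.6, 19.5 and 16.05 RPKM. Snhg10, named for a small RNA host, had 4.34, 2.71, 17.5 and 22.7 RPKM, and 1810008I18Rik had 11.2, 8.91, 4.77 and 10.5 RPKM. Hnf4aos, transcribed opposite the hepatocyte transcription factor gene Hnf4a, had 3.05, 2.51, 14.2 and 14.01 RPKM, and 1810019D21Rik had 3.23, 1.93, 14.3 and 12.9 RPKM.

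Most members were far lower. In all, 755 were above 0 in a group and 175 (18.8%) were at 0 in all 4; 510 reached 0.1 RPKM, 200 reached 0.5, 97 reached 1 and 13 reached 10 RPKM in a group. More members were at 0 in total than in nuclear RNA, with 397 in female total, 427 in male total, 250 in female nuclear and 248 in male nuclear RNA. Above 0 in every group were 430 members, in nuclear RNA alone 160 and in total RNA alone 19. A value of 0 is compatible with up to 3 expected counts over a group. For a transcript of 1 kilobase that is 0.0867, 0.104, 0.0833 and 0.0844 RPKM in the same order, called here the level of 3 counts per kilobase. The limit on a value of 0 is lower for a longer transcript and higher for a shorter one. These limits follow from library sizes of 6.43 to 13.8 M reads (M, mega), recovered from the smallest steps in the means of rows with 1 exon, and they cover counting error only.

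**Figure D1:**
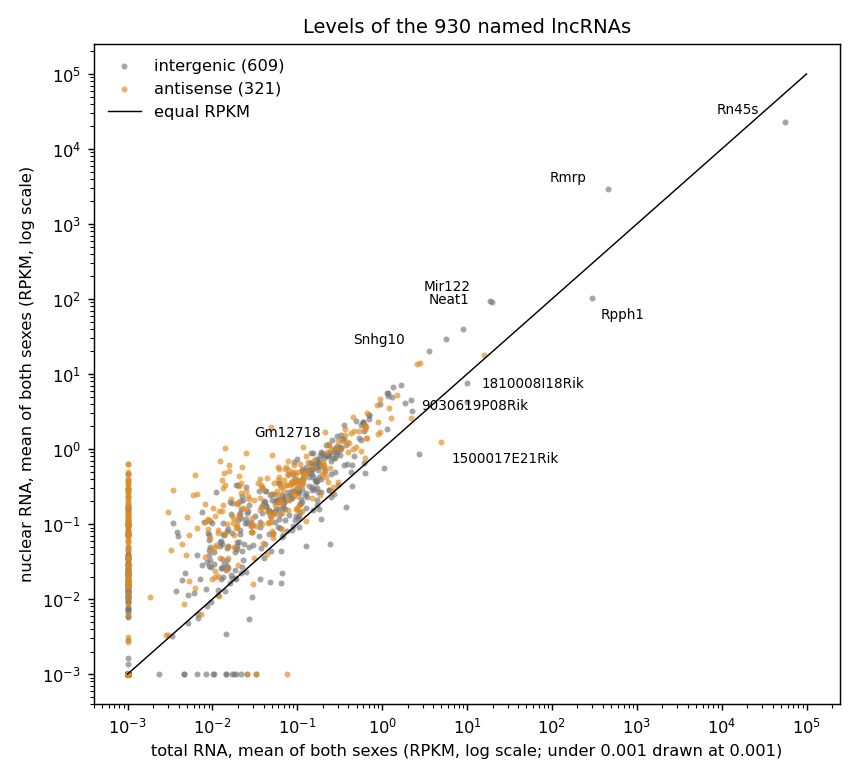
Each point is 1 of the 930 named lncRNAs, with the authors' mean RPKM over both sexes in total RNA (x axis) and in nuclear RNA (y axis), both on log scales, and the line marks equal values. Of the 755 members above 0, 693 lie above the line, while Rn45s, Rpph1, 1810008I18Rik and 1500017E21Rik lie below it.

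Over all rows, having a name did not go with a higher median level. The median over the 4 groups' mean was 0.0634 RPKM for named and 0.0724 RPKM for unnamed lncRNAs, a ratio of 0.875, and the medians were 0.0371 against 0.0640 RPKM among intergenic and 0.115 against 0.158 RPKM among antisense lncRNAs. At the upper end the order turned, since 97 named rows (10.4%) reached 1 RPKM in a group, against 1018 unnamed rows (7.25%). The classes differed in gene structure. Named lncRNAs had a single exon in 12.5% of rows and a median span of 8600 bp, while unnamed lncRNAs had a single exon in 84.8% and a median span of 1314 bp. By exon number the order of the medians changed. With 1 exon the median was 0.110 RPKM for named and 0.0703 RPKM for unnamed rows, and with 2 exons 0.0904 and 0.0901 RPKM. With 3 or 4 exons it was 0.0442 and 0.0786 RPKM, and with 5 or more 0.0692 and 0.120 RPKM. These are descriptions of the deposited catalogue with no test.

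Rows that hold a small RNA were higher than the rest. A RefSeq microRNA or small nucleolar or Cajal body RNA lies in 83 members, whose median over the 4 groups' mean was 0.224 RPKM, against 0.0537 RPKM for the 847 others. E130102H24Rik, whose row holds Mir101a, had the authors' means of 1.24 and 1.05 RPKM in female and male total RNA and of 5.27 and 5.77 RPKM in female and male nuclear RNA. The row of Mir30a and Mir30c-2 had 1.55, 1.05, 4.87 and 5.14 RPKM. The row of Mirlet7d, Mirlet7a-1 and Mirlet7f-1, of the let-7 family that restrains growth, had 0.808, 0.608, 2.30 and 2.76 RPKM. All of these lay higher in nuclear than in total RNA in both sexes. That is no trait of such rows alone. In the mean of both sexes, nuclear RNA was higher in 96.2% of members above 0 that hold a small RNA and in 91.3% of those that hold none.

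Promoters of the more abundant members were richer in G and C. The median G and C content of the RefSeq promoter was 50.7% for 132 members at 0 in all groups (quartiles 46.3 and 54.8%), 50.3% for 177 members under 0.1 RPKM, 58.7% for 296 members of 0.1 to 1 RPKM and 57.3% for 65 members of at least 1 RPKM (quartiles 50.7 and 64.3%). Over all 27025 symbols of the promoter table the median was 52.7%. Among members whose row starts within 100 bp of the RefSeq start, the medians were 50.7% for 117 members at 0 and 60.2% for 38 members of at least 1 RPKM. The median number of CpG was 5 for members at 0 and 15 for members of at least 1 RPKM.

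Nuclear and total levels were compared for 97 members with at least 1 RPKM in a group. That filter takes the highest of the 4 groups, so a member can pass it through nuclear RNA alone. Gm15713 did so, with means over both sexes of 0.0493 RPKM in total and 2.00 RPKM in nuclear RNA. So did many others, such as Snhg12, Gm38416 and Platr4, whose means in total RNA were under 0.5 RPKM in each sex. The filter thus selects to a large part on the nuclear level itself, and the medians and shares below carry that selection. For each of the 97, log2((nuclear + 1)/(total + 1)) of the authors' means over both sexes was taken, and the median over the 1236 lncRNAs of the table at that level, 0.94, was subtracted, so that 0 is the median lncRNA. The pseudocount of 1 RPKM makes differences of low members smaller. The named lncRNAs had a median of -0.13 (quartiles -0.32 and 0.21), and 35 of 97 (36.1%, 95% Wilson interval 27.2 to 46.0%, counting error only) lay above 0. That interval counts members and says nothing of the spread between pools. Unnamed lncRNAs at the same level had a median of -0.01, with 48.8% of 1018 above 0. The position of the named set moved with the filter, since with at least 0.1 RPKM the median of 510 members was 0.03 and 54.3% lay above 0.

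Relative to the median lncRNA, Rmrp was the most nuclear member with 1.75, and Neat1 followed with 1.33. Snhg10 had 1.28, Scar2 1.23, the Mir122 row 1.22, 1810019D21Rik and 4930470H14Rik 1.08 each, and Hnf4aos 1.05. Neat1 is known to stay in the nucleus in paraspeckles, and Scarna2 acts in nuclear Cajal bodies. At the other end Rpph1 had -2.44, 1500017E21Rik -2.34 and Rn45s -2.23, with 2900097C17Rik next in order. AW112010, an RNA induced by inflammatory signals in mouse immune cells, had -1.93, with the authors' means of 3.60 and 1.78 RPKM in female and male total RNA and 0.979 and 0.739 RPKM in female and male nuclear RNA. Gm1943 had -1.35, 1810008I18Rik -1.30 and 0610005C13Rik -0.80. All nuclear pools ran in sequencing lane 4 and 4 of the 6 total pools in lane 3, so fraction and lane overlap in part, and the group means do not separate them.

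**Figure D2:**
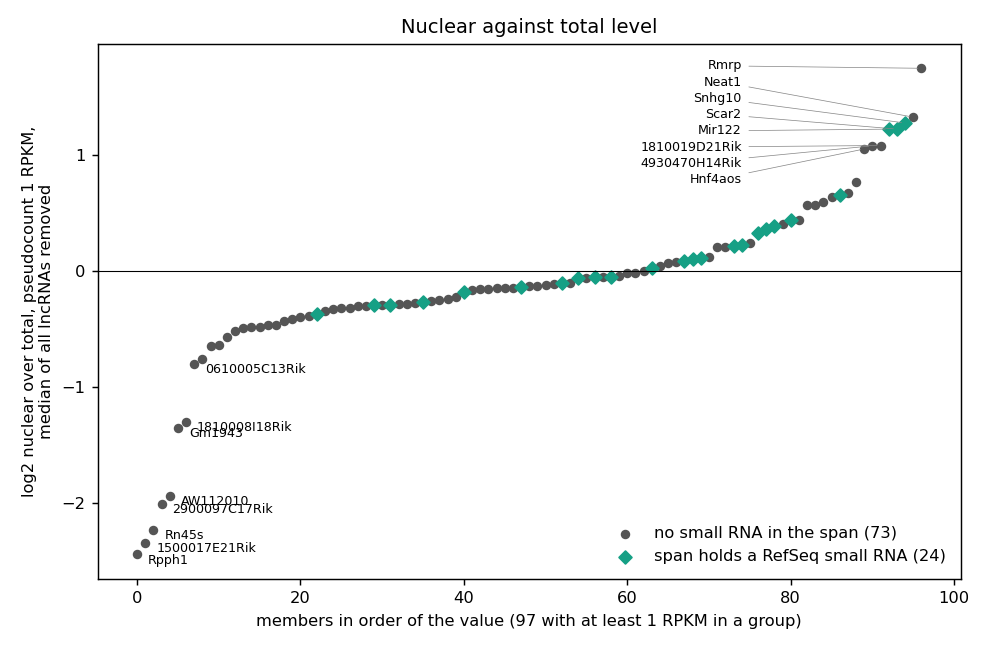
The 97 named lncRNAs with at least 1 RPKM in a group are ordered by log2 nuclear over total (pseudocount 1 RPKM, median of all lncRNAs at that level removed), with the 8 lowest and 8 highest named. Values run from -2.44 for Rpph1 to 1.75 for Rmrp, and diamonds mark the 24 members that hold a RefSeq small RNA.

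Members that hold a small RNA had a median of 0.09 on this scale (24 members, 14 above 0), and those without had -0.16 (73 members, 21 above 0). Named antisense lncRNAs had a median of -0.14 over 41 members and unnamed antisense lncRNAs 0.14 over 234, while the intergenic medians were -0.13 over 56 named and -0.04 over 784 unnamed members. Members with 5 or more exons had -0.05 (39), with 3 or 4 exons -0.17 (33), with 2 exons -0.20 (16) and with a single exon -0.06 (9). None of these differences was tested, and all rest on the filter that many members passed through nuclear RNA alone.

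Between the sexes, 25 named lncRNAs were called, and 10 of them in both RNA fractions. In total RNA 11 of 930 were called (1.18%, against 0.932% of all lncRNAs tested and 0.812% of unnamed ones), 6 higher in males (0.645%, all 0.45%) and 5 higher in females (0.538%, all 0.482%). In nuclear RNA 24 were called (2.58%, against 4.11% of all lncRNAs and 4.08% of unnamed ones), 16 higher in males (1.72%, all 1.94%) and 8 higher in females (0.86%, all 2.17%). All 10 called in both fractions kept their direction, 6 higher in males and 4 in females. Of the 14 called in nuclear RNA alone, 13 had the same sign in total RNA. That sign is of the scaled log2, and for some of the 13 the male mean in total RNA was the lower one, as given below. No share over all lncRNAs was set beside the overlap of 10 or these like directions. Of the 25, 21 were intergenic and 4 antisense, and 22 reached 0.5 RPKM. At that level in a sex, 22 of 197 named (11.2%) and 17.7% of 2092 unnamed lncRNAs were called in nuclear RNA, and 4 of 73 (5.48%) and 10.6% of 461 in total RNA. From 0.1 to 0.5 RPKM the shares were 0.651% of 307 named and 3.18% of 6392 unnamed in nuclear RNA, and 3.50% of 200 and 2.08% of 2693 in total RNA. In bulk RNA, fewer cells of a type and less RNA per cell cannot be told apart.

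Over rows of at least 0.3 RPKM, the deposited log2 values lie above the log2 quotient of the authors' means, with a median gap of 0.50 for total and 0.11 for nuclear RNA. A member whose male mean in total RNA is a little lower can therefore have a positive log2 in the authors' deposited table, as 1810008I18Rik, Platr4, 4931408D14Rik, 1700052K11Rik and 1810034E14Rik do. No called member had the other sign on the unscaled quotient in the fraction where it was called. This could hardly be otherwise, because the smallest called log2 values, -0.92 for Meg3 in total and 0.49 for Snhg10 in nuclear RNA, exceed those gaps in size. All male total pools ran in lane 3, as did 1 of 3 female total pools, so in total RNA sex and lane overlap in part and the group means do not separate them, while the nuclear comparison lies within lane 4.

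Gm12718 (mm9 chromosome 4, 103055088 to 103169173, plus strand, intergenic, 4 exons) had the widest gap of the 25. Where 4 RPKM values follow each other from here on, they stand for females and then males in total RNA, and females and then males in nuclear RNA. The authors' means were 0.0468 RPKM in female total, 0.610 in male total, 0.0573 in female nuclear and 2.04 in male nuclear RNA. Female values lie below the level of 3 counts per kilobase in both fractions. By the authors' deposited table, log2 was 4.08 (adjusted p = 1.43e-24) in total RNA and 5.22 (adjusted p = 6.47e-69) in nuclear RNA. Its nearest gene with a protein-coding RefSeq entry is Oma1, a mitochondrial protease gene 16055 bp away, which was called in neither fraction in the authors' deposited table (log2 -0.29 in total and 0.48 in nuclear RNA).

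Gm17830 (chromosome 17, 49386388 to 49452285, minus strand, 8 exons), whose promoter is printed above, had 0.236 RPKM in female total, 0.332 in male total, 0.425 in female nuclear and 1.24 in male nuclear RNA. Male nuclear RNA was the highest of the 4 groups. Log2 in the authors' deposited table was 0.98 (adjusted p = 0.0206) in total and 1.66 (adjusted p = 4.44e-18) in nuclear RNA. C730027H18Rik (chromosome 10, 70625939 to 70644797, minus strand, 9 exons) had 0.481, 0.693, 1.32 and 3.12 RPKM in the same order, so males were higher in each fraction. The authors' deposited table lists log2 0.94 (adjusted p = 0.0285) in total and 1.35 (adjusted p = 6.36e-14) in nuclear RNA. Bicc1, an RNA-binding protein gene 3557 bp away, was not called in the authors' deposited table (log2 -0.09 and -0.04).

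1700028E10Rik (chromosome 5, 152166692 to 152234858, plus strand) had 0.262, 0.442, 1.05 and 1.72 RPKM. In the authors' deposited table it had log2 1.27 (adjusted p = 4.94e-09) in total and 0.83 (adjusted p = 0.00142) in nuclear RNA. For 1700028E10Rik the authors' deposited table of RefSeq genes made the call in total RNA (log2 1.34, adjusted p = 0.0220) and not in nuclear RNA (log2 0.32, adjusted p = 0.894). The antisense Gm38416 (chromosome 8, 120194330 to 120217109, plus strand, 8 exons) had 0.258, 0.471, 1.41 and 2.32 RPKM. Males were higher in each fraction for both transcripts. For Gm38416 the log2 of the authors' deposited table was 1.23 (adjusted p = 0.000533) in total and 0.82 (adjusted p = 1.26e-07) in nuclear RNA. It overlaps Sdr42e1, a short-chain dehydrogenase gene, which the authors' deposited table called higher in females in total RNA (log2 -0.45, adjusted p = 0.0111) and did not call in nuclear RNA (log2 -0.15). B930025P03Rik (chromosome 8, 10869829 to 10895190, minus strand) had 0.101, 0.196, 0.405 and 0.668 RPKM. Its values were log2 1.34 (adjusted p = 0.0159) in total and 0.84 (adjusted p = 0.00264) in nuclear RNA in the authors' deposited table. Among RefSeq genes the authors' deposited table did not call B930025P03Rik (log2 1.89, adjusted p = 0.0901 in total and log2 0.89, adjusted p = 0.111 in nuclear RNA).

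Of the female-higher lncRNAs, 9030619P08Rik (chromosome 15, 75245949 to 75262384, minus strand, 4 exons) was the highest in level among those called in both fractions. The authors' means were 3.12 RPKM in female total, 0.621 in male total, 6.74 in female nuclear and 1.51 in male nuclear RNA. Each female mean was above the male mean of its own fraction, and female total lay above even male nuclear RNA. By the authors' deposited table, log2 was -1.81 (adjusted p = 1.76e-17) in total and -2.06 (adjusted p = 1.53e-17) in nuclear RNA. Its nearest protein-coding gene by RefSeq entry, Ly6h, lies 132790 bp away and is listed at 0 in all groups.

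Mir3968 (chromosome 11, 115302947 to 115309519, minus strand, antisense) had 0.589 RPKM in female total, 0.148 in male total, 2.34 in female nuclear and 0.737 in male nuclear RNA. Log2 in the authors' deposited table was -1.42 (adjusted p = 0.000927) in total and -1.54 (adjusted p = 1.33e-11) in nuclear RNA. It overlaps Trim80, a gene of the tripartite motif family, with log2 -1.46 (adjusted p = 0.0288) in nuclear RNA and -0.62 (not called) in total RNA in the authors' deposited table. 4632428C04Rik (chromosome 16, 29986058 to 30021656, plus strand, 5 exons) had 0.178, 0.0519, 0.705 and 0.314 RPKM. In the authors' deposited table it had log2 -1.28 (adjusted p = 0.0387) in total and -1.07 (adjusted p = 0.00446) in nuclear RNA. The authors' deposited table of RefSeq genes did not call 4632428C04Rik, with log2 -0.75 in total and -0.48 in nuclear RNA (adjusted p = 1 for each). Hes1, a repressor that responds to Notch, lies 43786 bp away and was not called in the authors' deposited table (log2 -0.59 and 0.10).

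Meg3 (chromosome 12, 110779088 to 110827825, plus strand, 10 exons), an imprinted RNA expressed from the maternal allele and the start of a long microRNA cluster, had 0.276, 0.106, 0.540 and 0.257 RPKM. By the authors' deposited table, log2 was -0.92 (adjusted p = 0.0129) in total and -0.94 (adjusted p = 0.00661) in nuclear RNA. Dio3os (chromosome 12, 111513593 to 111517389, minus strand), at the far end of the same imprinted domain and 50 bp from the deiodinase gene Dio3, had 0.124, 0.0389, 0.381 and 0.104 RPKM. It was called in nuclear RNA (log2 -1.72, adjusted p = 0.0209) and not in total RNA (log2 -1.08) in the authors' deposited table. The authors' deposited table of RefSeq genes did not call Dio3os in nuclear RNA (log2 -1.29, adjusted p = 0.318). Its male mean in total RNA lies below the level of 3 counts per kilobase. Both transcripts were thus higher in females in nuclear RNA, and Rtl1 and Dio3 themselves were at or near 0, with the highest of their authors' means 0.0200 FPKM (fragments in place of reads) for Rtl1 in female nuclear RNA.

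**Figure D3:**
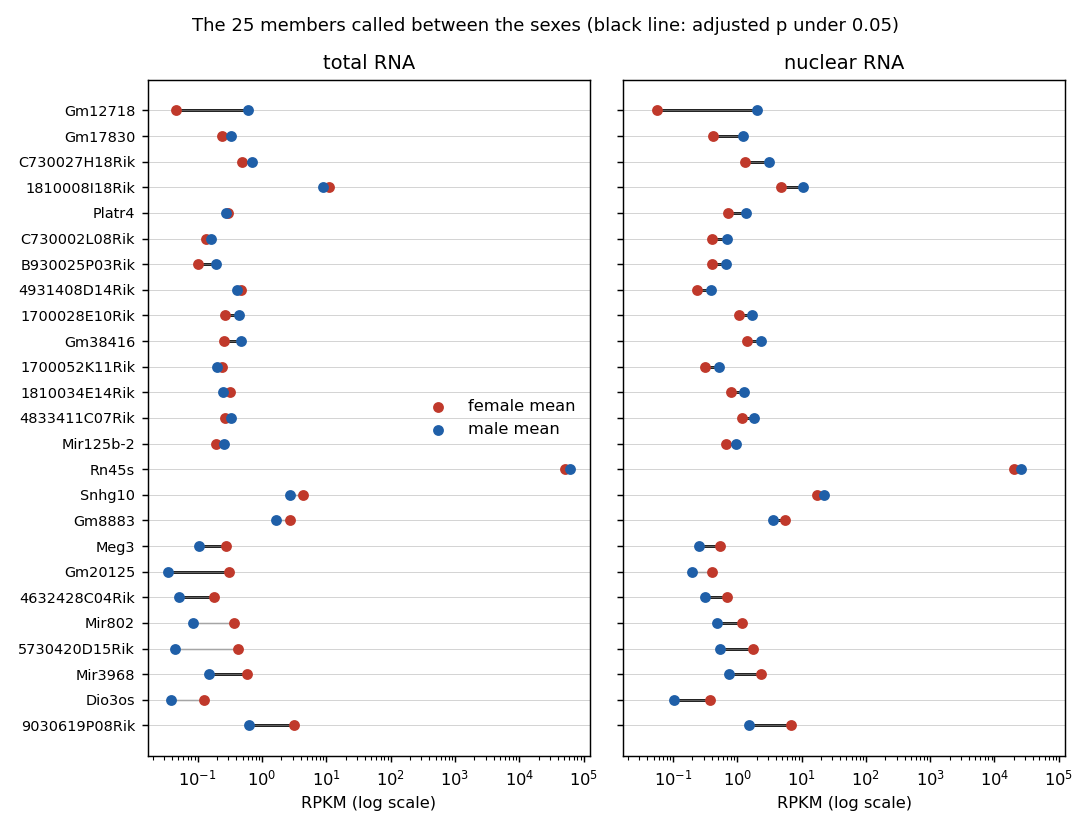
Authors' mean RPKM (log scale) of the 25 called lncRNAs in females and males, in total RNA (left) and nuclear RNA (right), ordered by the deposited nuclear log2, with a black line where the authors' adjusted p is under 0.05. Female and male means lie farthest apart for Gm12718 in both panels, and at the bottom 9030619P08Rik is higher in females in both.

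Gm20125 (chromosome 10, 16596749 to 16815588, minus strand, 13 exons) was the lncRNA called in total RNA alone. Its means were 0.305 RPKM in female total, 0.0345 in male total, 0.412 in female nuclear and 0.198 in male nuclear RNA. Log2 in the authors' deposited table was -2.28 (adjusted p = 0.00181) in total and -0.96 (adjusted p = 0.794) in nuclear RNA. Gm20125 was not called by the authors' deposited table of RefSeq genes in total RNA (log2 -1.88, adjusted p = 0.376). Whether the difference itself differs between the fractions was not tested.

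Among lncRNAs called in nuclear RNA alone, 1810008I18Rik (chromosome 7, 72947798 to 72954373, plus strand) was the most abundant after Rn45s and Snhg10. It had 11.2 RPKM in female total, 8.91 in male total, 4.77 in female nuclear and 10.5 in male nuclear RNA, so female nuclear RNA was the low group. By the authors' deposited table, log2 was 1.24 (adjusted p = 9.29e-13) in nuclear and 0.15 (adjusted p = 1) in total RNA. 5730420D15Rik (chromosome 10, 94880009 to 94891274, plus strand) had 0.428, 0.0445, 1.74 and 0.546 RPKM. It was called in nuclear RNA (log2 -1.54, adjusted p = 0.0117), and its total RNA value of -2.46 was not called (adjusted p = 0.216), from the authors' deposited table. Socs2, an inhibitor of growth hormone signalling that lies 518 bp away, was called higher in females in total RNA (log2 -0.73, adjusted p = 0.00956) and had -0.54 (adjusted p = 0.485) in nuclear RNA in the authors' deposited table.

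The Mir802 row (chromosome 16, 93368514 to 93371903, plus strand) had 0.373, 0.0859, 1.18 and 0.479 RPKM. Females were higher in each fraction, and the authors' deposited table called it in nuclear RNA (log2 -1.20, adjusted p = 0.00608) and not in total RNA (log2 -1.46, adjusted p = 0.0768). The Mir125b-2 row, a single exon on chromosome 16 (77645487 to 77653967, plus strand), had 0.193, 0.252, 0.678 and 0.965 RPKM. It was higher in males in nuclear RNA with log2 0.61 (adjusted p = 0.0350), from the authors' deposited table. Gm8883 (chromosome 1, 71934464 to 71942513) had 2.77, 1.66, 5.55 and 3.56 RPKM and was higher in females in nuclear RNA with log2 -0.53 (adjusted p = 0.0205), from the authors' deposited table.

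The other 8 called in nuclear RNA alone were all higher in males. Platr4, named for pluripotent mouse cells, had 0.729 RPKM in female and 1.35 in male nuclear RNA, with log2 0.99 (adjusted p = 2.17e-09), from the authors' deposited table. 4833411C07Rik had 1.17 and 1.84 RPKM with log2 0.76 (adjusted p = 1.26e-06), and C730002L08Rik had 0.401 and 0.685 RPKM with log2 0.88 (adjusted p = 0.00470), from the authors' deposited table. The antisense 1810034E14Rik had 0.799 and 1.28 RPKM with log2 0.79 (adjusted p = 0.00326), and the antisense 1700052K11Rik had 0.318 and 0.524 RPKM with log2 0.82 (adjusted p = 0.0187), from the authors' deposited table. 4931408D14Rik had 0.238 and 0.396 RPKM with log2 0.83 (adjusted p = 0.0313), from the authors' deposited table. C730002L08Rik, 1700052K11Rik and 4931408D14Rik were not called in nuclear RNA by the authors' deposited table of RefSeq genes (adjusted p = 0.264, 0.0746 and 0.114). The smallest were Rn45s and Snhg10, which had log2 0.51 (adjusted p = 0.00417) and 0.49 (adjusted p = 0.0286), from the authors' deposited table. Rn45s is the target of the partial ribosomal RNA depletion, and the part of that step in its values was not tested.

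Snhg10 is a row of which the named host was hardly seen. In the RefSeq table Snhg10 itself had the authors' means of 0.0862 to 0.198 FPKM over the 4 groups. Scarna13, the small Cajal body RNA within the row, had 7.05 FPKM in female total, 4.41 in male total, 28.7 in female nuclear and 37.7 in male nuclear RNA. The authors' deposited table called Scarna13 higher in males in nuclear RNA (log2 0.51, adjusted p = 0.00183). Mir3069, also within the row, had 13.9, 7.91, 62.2 and 76.4 FPKM in the same order and was not called in nuclear RNA by the authors' deposited table (log2 0.41, adjusted p = 0.208). The Mir3069 value may hold reads of Scarna13, so it does not show a microRNA precursor measured on its own. Reads of Scarna13, of Mir3069 and of their host cannot be told apart in the row's value.

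**Figure D4:**
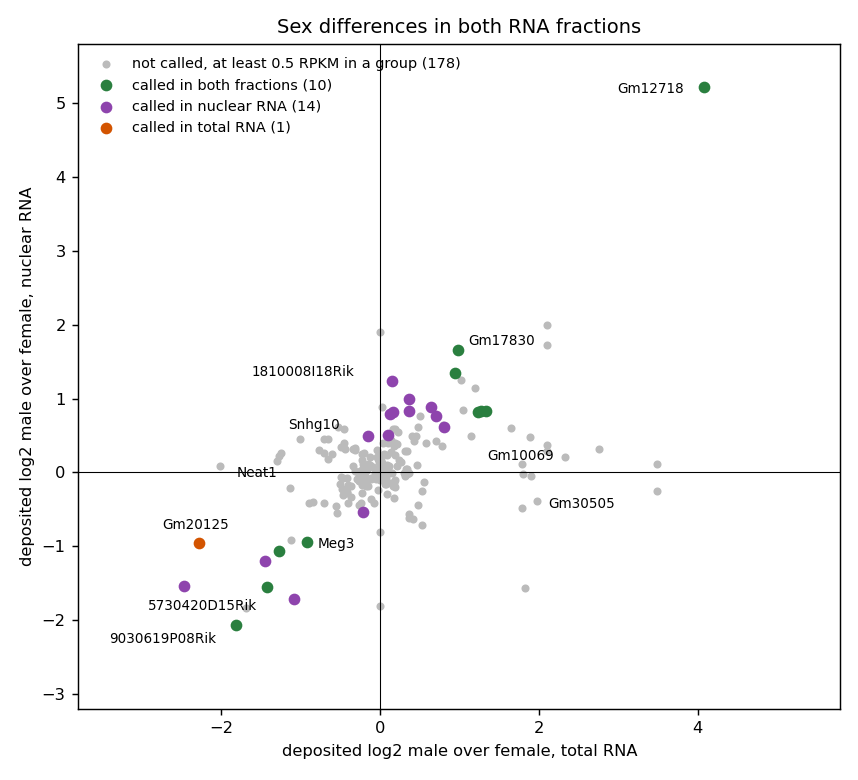
Deposited log2 of males over females in total RNA (x axis) and nuclear RNA (y axis) for the 25 called lncRNAs, coloured by the fraction of the call, and for 178 members of at least 0.5 RPKM that were not called (grey). All 10 called in both fractions lie at the lower left or upper right, and Snhg10 is the called lncRNA that lies left of 0 and above 0.

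Genes beside the called lncRNAs moved with some of them and against others. The 25 called lncRNAs have 24 distinct nearest genes with a protein-coding RefSeq entry (B930025P03Rik and 4833411C07Rik share Irs2), 8 of which lie over 100 kb away. By the authors' deposited table, 8 of the 24 were called in nuclear RNA, 5 in total RNA and 11 in either. Of all 20623 such genes, 4.68% were called in nuclear RNA and 3.46% in total RNA. Those shares are over genes of any level, and none was computed at matched level or for either fraction. Whether genes beside called lncRNAs are called more often than others of their level was therefore not tested. Of the 24 lncRNAs called in nuclear RNA, 5 had a nearest gene called in the same direction, 3 in the other direction and 16 not called. No share of other genes was set beside these counts. Some of the pairs overlap, as the antisense ones do, and there reads of lncRNA and gene cannot be told apart.

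Same-direction pairs included the antisense 1810034E14Rik and the phosphatase gene Cdc14b that it overlaps, with log2 0.66 (adjusted p = 0.000386) in nuclear RNA for Cdc14b in the authors' deposited table. Another was Gm8883 and Fn1, the fibronectin gene 234656 bp away, which had log2 -0.35 (adjusted p = 0.0136) in total and -0.73 (adjusted p = 1.39e-18) in nuclear RNA in the authors' deposited table. 1810008I18Rik lies 52648 bp from Pcsk6, a proprotein convertase gene with log2 0.47 (adjusted p = 0.0389) in nuclear RNA in the authors' deposited table. Mir802 lies 211802 bp from Setd4, a methyltransferase gene with log2 -0.84 (adjusted p = 0.0103) in nuclear RNA in the authors' deposited table. Mir3968 and Trim80, given above, were the remaining pair of this kind.

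Opposite-direction pairs were led by Irs2, an insulin receptor substrate. The male-higher B930025P03Rik and 4833411C07Rik lie next to each other on opposite strands, 91773 and 63350 bp from Irs2. Irs2 was higher in females, with the authors' means of 1.30 FPKM in female total, 0.531 in male total, 2.33 in female nuclear and 1.28 in male nuclear RNA. In the authors' deposited table Irs2 had log2 -0.80 (adjusted p = 0.0107) in total and -0.74 (adjusted p = 0.00192) in nuclear RNA. Gm17830 lies 115403 bp from Mocs1, a gene of molybdenum cofactor synthesis with log2 -0.38 (adjusted p = 0.0207) in nuclear RNA in the authors' deposited table. Gm20125, which was not called in nuclear RNA, has Cited2 at 627445 bp, called higher in males there by the authors' deposited table (log2 0.73, adjusted p = 0.0342). The library kit kept strand, but the sources used here do not say whether counting used it, so antisense lncRNAs and the genes they overlap cannot be told apart; 320 of the 321 antisense members overlap such a gene.

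**Figure D5:**
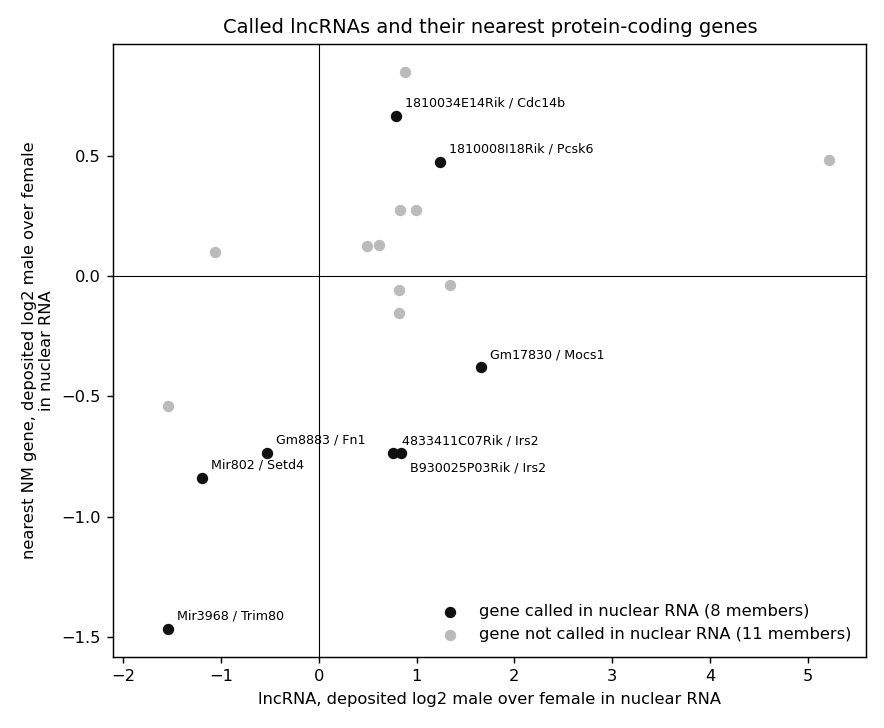
Deposited nuclear log2 of males over females for called lncRNAs (x axis) and for the nearest gene with a protein-coding RefSeq entry (y axis), for 19 lncRNAs whose nearest gene reached 0.1 FPKM in a group. The 8 labelled pairs, in which the gene is called, have 2 points upper right, 3 lower left and 3 lower right.

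Members of lists of lncRNAs with a known role or history are given by their counts, to be set beside the 1.18% of all named lncRNAs called in total and the 2.58% called in nuclear RNA (11.2% of those of at least 0.5 RPKM there). With lists this short, a count of 0 or 1 is read no further. Of 13 members on a list of small RNA hosts and growth-linked hosts (25 listed), 11 reached 0.5 RPKM and 1, Snhg10, was called, higher in males in nuclear RNA; the median log2 of the members above 0 was -0.08 in nuclear RNA in the authors' deposited table, against 0.09 for all lncRNAs above 0. Gas5, a host that accumulates in growth arrest, had 1.71 RPKM in female total, 1.29 in male total, 5.92 in female nuclear and 4.52 in male nuclear RNA, and the authors' deposited table lists log2 0.08 and -0.29. Snhg20 (0.836, 0.580, 2.91 and 2.75 RPKM), Snhg17 (0.649, 0.347, 2.64 and 2.04 RPKM), Snhg1 (0.748, 0.492, 2.13 and 1.54 RPKM), Snhg12 (0.396, 0.322, 1.94 and 2.19 RPKM) and Snhg8 (0.613, 0.453, 1.89 and 1.60 RPKM) were of middle level, none of them called. Below them were Snhg7 (0.436, 0.246, 1.39 and 1.18 RPKM), Snhg5 (0.331, 0.218, 0.993 and 0.820 RPKM) and Dancr (0.254, 0.0808, 0.705 and 0.789 RPKM), also not called. Tug1, which is on that list although it hosts no small RNA, had 2.65, 1.86, 3.18 and 3.27 RPKM. Relative to the median lncRNA the 9 listed members of at least 1 RPKM had a median nuclear over total log2 of 0.21, from -0.57 for Tug1 to 1.28 for Snhg10.

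Of the nuclear architecture and catalytic RNAs listed, 4 were members (Rmrp, Rpph1, Neat1 and Pvt1), with 0 of the 4 called in the lncRNA table. Neat1 had log2 -1.13 (adjusted p = 0.104) in total and -0.21 (adjusted p = 0.916) in nuclear RNA in the authors' deposited table of lncRNAs. The authors' deposited table of RefSeq genes did call Neat1 higher in females, with log2 -0.92 (adjusted p = 0.00155) in total and -0.50 (adjusted p = 0.0056) in nuclear RNA. Pvt1, a neighbour of Myc, had 0.119, 0.153, 0.374 and 0.484 RPKM.

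Of 16 imprinted lncRNAs listed 3 were members, and Meg3, called in both fractions, was the one that reached 0.5 RPKM. H19, abundant in fetal liver, had 0.0444 RPKM in female total, 0.00926 in male total, 0.0109 in female nuclear and 0 in male nuclear RNA, all under 3 counts per kilobase. The microRNA host list gave 4 members of 15 and no call, with Mir17hg at 0.214, 0.112, 0.723 and 0.601 RPKM and the Mir143 row at 0.368, 0.180, 0.853 and 0.678 RPKM. The growth and p53 list gave 9 members of 22 and 1 lncRNA called, Meg3. The list of liver and lipid lncRNAs gave 9 of 27, with the same Meg3 call counted again, so that 1 call stands in the imprinted, growth and liver lists alike. On the liver list Gm16551 had 0.323, 0.317, 1.11 and 1.04 RPKM and 1700012D01Rik 0.371, 0.123, 0.619 and 0.303 RPKM, neither called, and on the growth list 2900097C17Rik was not called. Hnf4aos had log2 0.09 (not called) among lncRNAs and 0.63 (adjusted p = 0.0352) in nuclear RNA by the authors' deposited table of RefSeq genes. Of 9 lncRNAs listed as sex-biased in rat or mouse liver 4 were members, 4632428C04Rik was called higher in females in both fractions, and 1810019D21Rik (log2 -0.26 and -0.04 in the authors' deposited table) was not called. Median nuclear log2 of the members above 0, by the authors' deposited table, was 0.21 for the architecture list (4), -0.94 for imprinted (3), -0.06 for microRNA hosts (4), -0.21 for growth and p53 (8), -0.18 for liver and lipid (8) and -0.04 for sex-biased lncRNAs (3), beside the 0.09 of all lncRNAs.

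The RefSeq table measured the same loci by another transcript model, and 824 members were matched in it by symbol. It counts the same 12 libraries, so a like sign in it is no independent check. There, 6 of the 824 (0.728%, against 3.02% of all 24197 RefSeq genes) were called in total RNA and 12 (1.46%, against 4.19%) in nuclear RNA in the authors' deposited table. Of the 19 matched lncRNAs called in nuclear RNA, all 19 had the same sign in the RefSeq table and 10 were called there. In total RNA 9 were matched, all 9 had the same sign and 5 were called. No share of like signs was computed for members that were not called. Gm12718 stood out in both tables, with log2 4.08 (adjusted p = 4.07e-08) and 6.51 (adjusted p = 2.91e-33), from the authors' deposited table of RefSeq genes. Gm17830 did not, with log2 0.79 and 0.58 (adjusted p = 1 for each) there, where the authors' deposited table measures a shorter transcript model at 0.0427 to 0.127 FPKM. Platr4 is in the RefSeq table under its older symbol C430002E04Rik, with log2 0.92 (adjusted p = 4.38e-05) in nuclear RNA in the authors' deposited table.

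Liver identity and other cells were read from the RefSeq table. All 8 hepatocyte markers stood at 14.7 FPKM or more in total RNA, with sums of 7195 and 4224 FPKM in female and male total RNA and 605 and 515 FPKM in female and male nuclear RNA. In each fraction 2 of the 8 were called higher in males and 2 higher in females by the authors' deposited table. Kupffer cell and macrophage markers summed to 31.0 FPKM in female and 14.6 FPKM in male total RNA, with 3 of 9 called higher in females by the authors' deposited table (3.02% of all RefSeq genes were called in total RNA in either direction), and to 7.47 and 7.18 FPKM in nuclear RNA with none called. For 8 sinusoidal endothelial markers, none called, the sums were 23.6 and 15.2 FPKM in female and male total RNA and 24.0 and 22.1 FPKM in female and male nuclear RNA. In the same order they were 19.99, 12.8, 8.54 and 8.04 FPKM for 8 stellate markers with 1 called higher in females in total RNA. For 6 cholangiocyte markers, with 1 called higher in males in total RNA, the sums were 2.40, 2.66, 0.647 and 0.779 FPKM. For 6 lymphocyte markers, none called, they were 0.495, 0.369, 0.648 and 0.561 FPKM. Cftr of the cholangiocyte list was at 0 in a group. These sums are of unscaled means, and the scaled log2 of the authors' deposited table gave medians in total RNA of -0.09 for hepatocyte, -0.50 for Kupffer, -0.18 for endothelial, -0.18 for stellate, -0.13 for cholangiocyte and -0.19 for lymphocyte markers. In nuclear RNA the medians from the authors' deposited table were -0.17, -0.02, 0.09, -0.27, 0.41 and -0.39 in that order. The part of other cell types in the sex differences above was not tested.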

How the data were processed

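Livers of CD-1 mice gave 12 libraries in 4 groups of 3 pools, grouped by the labels. The submitters' processing notes name TopHat2, featureCounts, edgeR and the build mm9, while the sources used here give no versions, settings or use of strand in counting. For lncRNAs, per the file headers, the authors' values are a mean RPKM for every group and, from edgeR, a log2 fold change with its p-value and false discovery rate. For RefSeq genes, per the file headers, they are a mean FPKM, the male over female ratio and an adjusted p-value; the ratios are given here as log2. Coordinates are as deposited.

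No model could be fitted on group means, so the planned tests were replaced by calls at the authors' adjusted p-value under 0.05, and no difference between fractions or classes was tested. In 3 intragenic lncRNA rows the deposited columns are in another order and were left out, so 15555 rows were tested. No per-sample column was left unused (0). Library sizes were recovered from single-read steps. Nuclear over total values used a pseudocount of 1 RPKM and members of at least 1 RPKM in a group. Promoters and microRNAs are those of RefSeq on GRCm38.p6, matched by symbol and never placed on mm9 coordinates. Where a gene had several promoters, the most upstream was used.

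The members and lists were chosen with earlier results of these data known, and 1 marker list is not reported here. Named lncRNAs were all those called (up to 12 per direction and fraction), the 12 highest by mean RPKM, the 8 highest and 8 lowest nuclear over total, listed members of at least 0.5 RPKM, and the nearest genes of called members; the rows of let-7, Mir30a and Mir101a, and H19, Gm30505 and Gm10069, were named after their values were seen. Python 3.11.15, numpy 2.4.6, pandas 2.3.3, scipy 1.17.1 and matplotlib 3.10.9 were used.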

Additional observations from a re-analysis of the deposited data

How the results depend on the processing

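The count of named lncRNAs called in total RNA, 11, fell to 6 at an adjusted p under 0.01 and to 6 in the RefSeq table's own comparison of matched members; it was 8 among those also over 2-fold. In nuclear RNA the count of 24 was 17 at an adjusted p under 0.01, 10 among those also over 2-fold and 12 in the RefSeq table. Without members that hold a small RNA or are Rn45s, a choice made after seeing the data, the counts were 9 and 17. No share of all lncRNAs was computed at these settings, so the counts describe the named set and are not set against other lncRNAs. A filter of 0.1 RPKM and the unscaled quotient of means changed neither count. Neither setting was a real check, since all called members lay above that filter and the scaling gap is smaller than every called log2. The unscaled quotient kept the sign of all 35 sex differences called in a fraction. By the RefSeq table, which counts the same libraries, 15 of 28 stayed called and the other 13 kept their sign without a call. The causes were not tested.

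The share of members above the median lncRNA in nuclear over total level, 36.1%, was 48.2% with no filter (755 members), 54.3% with at least 0.1 RPKM (510 members) and 92.8% with no centring. It was 32.0 and 30.9% with pseudocounts of 0.1 and 0.01 RPKM, 33.0% in females and 37.1% in males. The ratio of the median level of named to unnamed lncRNAs, 0.875, was 0.902 by the highest group, 0.580 among intergenic and 0.730 among antisense rows.

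No paired analysis was possible because the deposited tables hold group means only, and no pool was left out for the same reason. Depth limits the lowest members: under 3 counts per kilobase, 0.0833 to 0.104 RPKM, lay 248 members above 0 in female total, 313 in male total, and 199 in each nuclear group.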

Other observations

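Gm30505 and Gm10069, both antisense, had opposite signs in the 2 fractions. Gm30505 had the authors' means of 0.675 RPKM in female total, 1.76 in male total, 4.09 in female nuclear and 2.87 in male nuclear RNA, with log2 1.98 (adjusted p = 0.216) and -0.39 (adjusted p = 0.887), from the authors' deposited table. Gm10069 had 0.548, 1.20, 4.11 and 3.70 RPKM, with log2 1.80 (adjusted p = 0.303) and -0.02 (adjusted p = 1), from the authors' deposited table. Neither was called, and the difference between fractions was not tested.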
